A study of Saccharomyces cerevisiae with 14 samples.

Results

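Yeast whose Snf2 ATPase was inactivated by the substitution K798A (the strain labelled CD, for Catalytic Dead) were compared with wild-type yeast (WT) by the position and occupancy of their nucleosomes. The samples were taken by genotype label: 3 CD and 3 WT samples, 6 of the 14 in the series. Both strains were in the BY4741 background, a haploid laboratory strain, and were grown in the rich medium YPD. Chromatin was crosslinked with formaldehyde and cut with micrococcal nuclease, which digests the linker between nucleosomes, and mononucleosomal DNA from a gel was sequenced without PCR. The 3 replicates of each strain were merged by the authors into 1 list of nucleosome calls, so each value below is 1 pooled value per strain, with no replicate check and no test. CD therefore stands for 1 allele in 1 pooled list. No clone or backcross is named in the labels. Values of 3 more strains of the same background and medium, a SNF2 deletion (dSnf2, 2 samples merged) and the SNF2 mutants labelled dSnAC and dAT (2 samples merged in each), stand beside some results.

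Snf2 is the motor of SWI/SNF, a multi-subunit remodeller that uses ATP hydrolysis to slide nucleosomes along DNA and to evict them, with known roles at the promoters of inducible and of highly transcribed genes. The substituted lysine lies in the ATP-binding motif of the ATPase domain. A catalytically dead subunit can still be assembled into the complex, unlike a deleted one, and the contrast addresses what the enzyme activity contributes to nucleosome placement. A nucleosome-depleted region lies upstream of most yeast genes, flanked by the -1 nucleosome on the far side and by the +1 nucleosome on the gene side, from which a regular array runs into the gene.

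Each call has a dyad, the centre of the nucleosome, and an occupancy, which was divided by the median of its list so that 1 is the median call. The lists held 63281 nuclear calls in WT and 63471 in CD. All calls, mitochondrial ones included, held 64981328 and 59767406 reads, with the smallest occupancy of a list taken as 1 read. A median call rested on 1030 reads in WT and 957 in CD, a counting error of 6.16% and 6.39% (95% half-width). SNF2 itself cannot show a point substitution in these data. Its reading frame (YOR290C, chromosome XV, 855147 to 860258, minus strand, sacCer3) had a mean occupancy of 0.663 in WT and 0.732 in CD, against 0.00559 in dSnf2, the SNF2 deletion strain. The spread of occupancy over calls was narrower in CD. Its quartiles were 0.860 and 1.15 against 0.828 and 1.19 in WT, and calls of 1.5 or more made up 1.98% of the list against 4.62%.

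In CD, nucleosome occupancy relative to the median call was lower at both edges of genes and slightly higher inside them. The median promoter, taken from -300 to -1 bp of the start codon, had 0.766 in WT and 0.683 in CD, a median log2 ratio of -0.15 over 5889 genes (95% interval over genes -0.152 to -0.145). The promoter was lower than in WT in 86.96% of genes. The terminator window, 1 to 200 bp past the stop codon, went from 0.732 to 0.620, a median log2 ratio of -0.19, and was lower in 85.1%. The first 1000 bp of the coding region went from 0.877 to 0.912, a median of 0.04, and were higher in 63.1% of the 3536 genes long enough. Each list was divided by its own median call, so these values are relative. Whether occupancy inside genes rose in absolute terms cannot be told from them. Intervals here and below reflect how genes vary and carry no replicate error, and the ratios of promoter, terminator and gene body windows were taken after adding 0.1 to both occupancies. The pattern was not particular to CD: the other mutants, compared with the same WT list, differed in the same directions. Promoter medians were -0.08 in dSnf2, -0.23 in dSnAC and -0.30 in dAT, and terminator medians -0.09, -0.30 and -0.39. Their gene body medians were 0.01, 0.05 and 0.06.

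**Figure D1:**
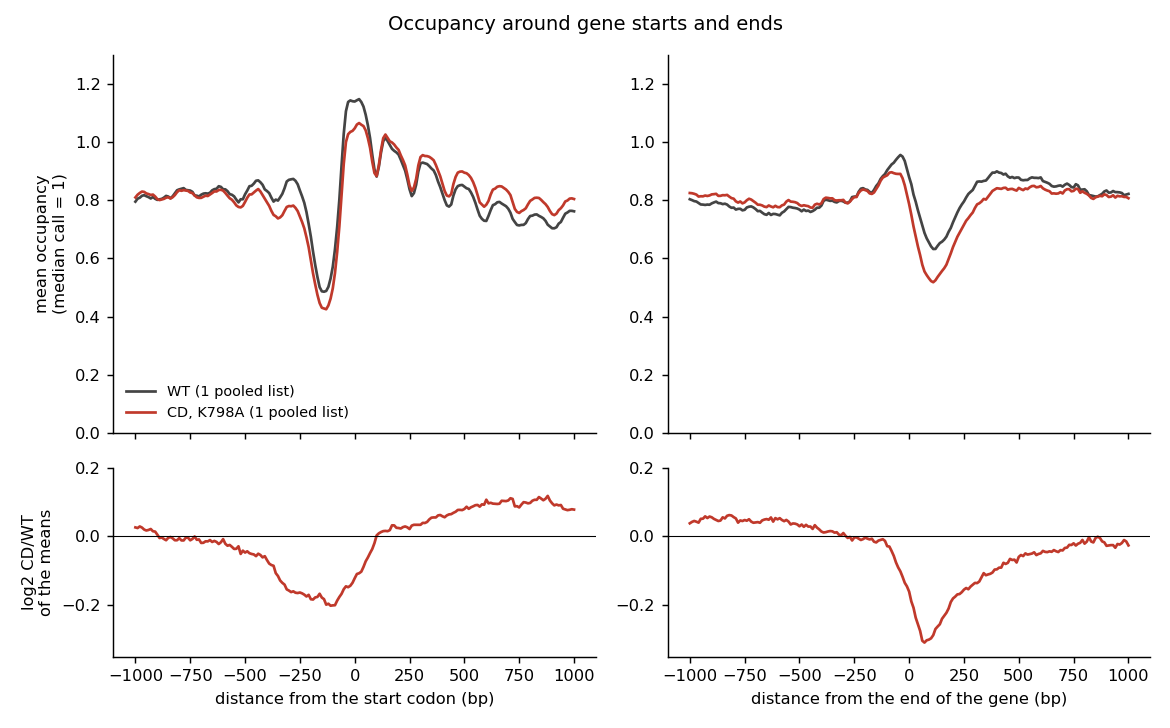
Mean occupancy (top, median call = 1) and log2 ratio of the CD and WT means (bottom) by distance in bp from the start codon (left) and from the end of the gene (right), over the 3536 genes of at least 1000 bp. The CD line lies below WT over the promoter trough and past the gene end and above it inside genes, with lowest ratios of -0.20 and -0.31.

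The mean profiles, whose ratios were taken with nothing added, place the differences. The WT trough at -140 bp of the start codon had 0.486 in WT and 0.428 in CD, and the ratio was lowest at -110 bp (-0.20). Past the gene end the ratio reached -0.31 at 70 bp, where WT had 0.688 and CD 0.555. The highest ratio, 0.12, lay at 880 bp inside the gene. Promoters shared by divergent genes had a median of -0.13 and those behind a tandem gene -0.17, and terminators between convergent genes had -0.20 against -0.18 for tandem ones. The promoter median lay between -0.17 and -0.10 on the 16 chromosomes, the terminator median between -0.22 and -0.17, and the gene body median was above 0 on all 16. In 1743 of the 3536 genes (49.3%) promoter and terminator were both lower and the body higher.

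Among the nucleosomes counted from the depleted region, the -1 and +1 nucleosomes were the least occupied in CD relative to WT. A WT call was followed to its nearest CD call within 73 bp, and the ratios of calls were taken with nothing added. These values are not means over a promoter window. Which calls count as -1 and +1 was set in the WT list, by the widest gap with its midpoint at -350 to 50 bp of the start codon. The -1 nucleosome went from 1.21 to 1.07 (median log2 -0.20, lower in 85.4% of 5661 genes) and +1 from 1.28 to 1.16 (-0.15, lower in 84.6% of 5670). The -2 nucleosome had -0.07 and +2 had -0.01. From +3 on the sign was the other way, with 0.04 at +3, 0.08 from +5 to +7 and 0.02 at +12. Pairs of calls whose WT and CD occupancies averaged at least 0.5 showed the same division by location, with a median of -0.18 in promoters, -0.18 in other intergenic sequence and 0.03 in coding sequence. Against the same WT list, -1 had -0.12 in dSnf2, -0.30 in dSnAC and -0.40 in dAT, and +1 had -0.10, -0.23 and -0.29.

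**Figure D2:**
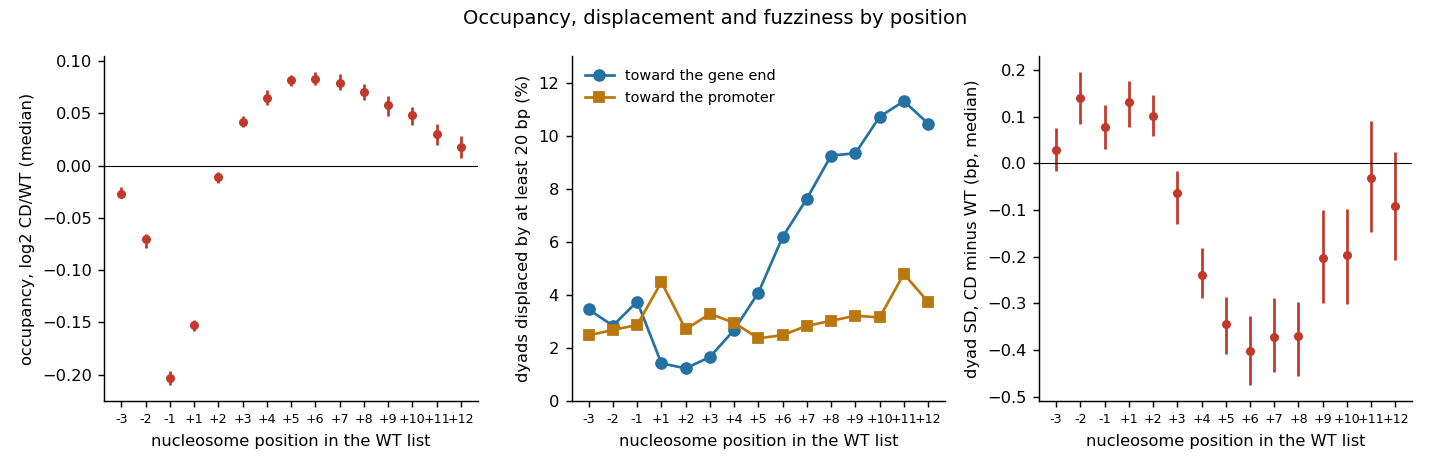
Median log2 occupancy ratio (left), percentage of dyads displaced by at least 20 bp (middle) and median difference of the dyad SD in bp (right) of CD against WT, by nucleosome position counted from the depleted region of WT. Bars are 95% order-statistic intervals over genes; the ratio is lowest at -1 (-0.20), and displacement toward the gene end grows to 11.3% at +11.

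Among matched calls, the weak ones had the lowest ratios, again with nothing added. Calls whose 2 occupancies averaged under 0.25 had a median of 0.092 in WT and 0.045 in CD (log2 -0.80, lower in 84.1% of 2000). In promoters the 971 such calls had -0.97, and the 742 in other intergenic sequence had -0.73. The 287 in coding sequence had only -0.21, lower in 60.3%. Calls between 0.5 and 0.75 had 0.12, and those of 1.5 and more had -0.12. The tRNA genes, which are short and nucleosome-poor, also had less: 0.323 in WT and 0.258 in CD over 275 genes, and 0.698 and 0.598 in their flanks. Without calls below 0.25 the promoter median was -0.14. With 0.1 added, the 251 promoters whose occupancies averaged under 0.25 had a median of -0.03. The other mutants were also lower than the same WT list. Calls averaging under 0.25 had -0.45 in dSnf2, -0.96 in dSnAC and -1.10 in dAT, and tRNA genes had 0.304, 0.249 and 0.217. The part of depth in the differences between regions was not tested.

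Most nucleosomes kept their place in CD. Of the WT dyads 96.99% had a CD partner, at a median distance of 3 bp, and 73.3% of the 61377 pairs lay within 5 bp of each other. Displacements of 20 bp or more concerned 5424 pairs (8.84%). Such displacements were more frequent where the dyad was loosely placed: 0.428% of pairs with a mean dyad SD of 15 to 20 bp and 28.5% of those of 40 bp or more.

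The direction of displacement changed along the gene. At +1, 4.48% of dyads lay 20 bp or more toward the promoter and 1.41% toward the gene end. At +4 the shares were 2.94% and 2.67%. At +6 they were 2.48% and 6.18%, at +8 3.02% and 9.26%, and at +10 3.14% and 10.7%. The distance from +1 to +6 had a median of 826 bp in WT and 830 bp in CD, and was longer in CD in 65.1% of 3778 genes and shorter in 27.9%. The median difference was 3 bp. The dSnf2 list, compared with the same WT list, had 3.58% and 10.9% at +10, whereas dSnAC had 4.92% and 6.88% and dAT 5.02% and 5.76%. These comparisons share the WT list, so they are not independent of each other.

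Single genes had whole arrays out of place; they were picked after their values were seen. The mean displacement of the +2 to +8 dyads could be taken in 3897 genes and had a median of 1.43 bp toward the gene end. It was 10 bp or more toward the gene end in 264 genes (6.77%) and as much toward the promoter in 160 (4.11%). At 20 bp or more the balance was the other way, with 30 and 41 genes. NNR2, which repairs damaged NADH and lies upstream of GPM1, had 40.4 bp, with 5 of 5 matched dyads moved that way. SSA3, an Hsp70 chaperone, had 36.8 bp (6 of 6), ECM22, a regulator of sterol genes, 32.6 bp (7 of 7), and YTA7, an ATPase that acts on histones, 32.7 bp (7 of 7). Toward the promoter stood TOS7 with -52.8 bp, SAM1, an S-adenosylmethionine synthetase, with -50.2 bp, and SUR2, a sphingolipid hydroxylase, with -45.8 bp. None of the matched dyads of these 3 genes moved toward the gene end (0 of 5, 0 of 5 and 0 of 6).

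Nucleosomes were about as sharply placed in CD as in WT. The dyad SD, the spread of read centres within a call, had a median of 29.9 bp in WT and 29.5 bp in CD. Per pair the median difference was -0.13 bp, with 1532 pairs (2.5%) sharper and 1018 (1.66%) fuzzier by 5 bp or more. The sign depended on position: the median difference was 0.13 bp at +1 and -0.40 bp at +6. The deposited conditional position, a fraction that the sources used here do not define, had a median of 0.0192 in WT and 0.0194 in CD. Its median difference per pair was 2.61e-05.

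The spacing of calls limits what a missing nucleosome means. No 2 dyads of a list lay less than 148 bp apart, and 5927 neighbouring pairs in WT and 6521 in CD lay exactly that far. Gaps of 286 to 295 bp were common (1544 in WT and 1426 in CD), and gaps in the next 10 bp were rare (9 and 22). A call can thus stand in 1 list and not in the other because its neighbours there lie less than 296 bp apart, which leaves no room for it. Of 1570 WT calls of at least 0.25 without a CD partner, 1568 had no room in CD, and of 1833 such CD calls, 1830 had no room in WT. Nearly any place in a list lies between dyads that close. These counts were thus all but fixed by the spacing and do not show why a call is missing. Among the genes named for their promoter or terminator window, those whose window is touched by such a call are given below.

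Few promoters differed by 1.5-fold or more (a log2 ratio of 0.58). They were 31 with higher occupancy in CD (0.526% of 5889) and 37 with lower (0.628%). After centring on the median promoter, which moves every ratio by 0.15, they were 60 and 12. A call without room touched 12 of the 31 and 12 of the 37, against 1.83% and 1.6% of all promoters, and without the promoters touched in either list the counts were 18 and 25. Counting error alone gave the 24 named promoters a 95% half-width of 0.09 to 0.19 on the log2 scale. It was computed for ratios with nothing added, so it is not an interval around the ratios printed here.

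**Figure D3:**
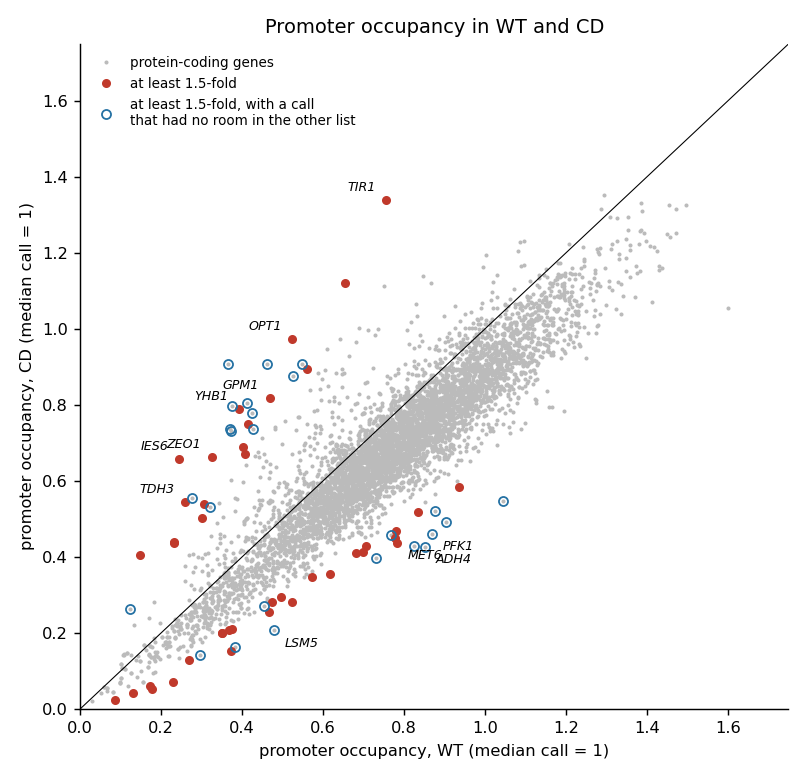
Promoter occupancy in CD against WT (both with the median call as 1), 1 point per gene; filled circles are promoters that differ by at least 1.5-fold and open circles those of them that include a call without room in the other list. Most genes lie just below the diagonal of equal occupancy, while TIR1, OPT1, GPM1 and TDH3 lie above it and MET6, ADH4 and PFK1 below.

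Several promoters with more occupancy in CD had a call that was stronger than its WT partner. At TDH3, the main glyceraldehyde-3-phosphate dehydrogenase gene (chromosome VII, 882812 to 883810, minus strand), the call at -312 bp had 0.27 in WT and its CD partner at -293 bp had 0.97. A second call went from 0.29 at -106 bp to 0.49 at -129 bp, and the window went from 0.260 to 0.544. At GPM1, phosphoglycerate mutase (chromosome XI, 163642 to 164385, minus strand), the call at -216 bp with 0.45 had a partner at -206 bp with 1.17. OPT1, an oligopeptide transporter (chromosome X, 33850 to 36249, minus strand), went from 0.52 at -205 bp to 1.42 at -214 bp. TIR1, a cell wall mannoprotein (chromosome V, 175248 to 176012, plus strand), went from 0.29 at -246 bp to 1.47 at -253 bp.

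IES6, which encodes part of the INO80 remodeller, had 0.14 at -307 bp in WT and 1.37 at -258 bp in CD, while its call nearer the gene went from 0.29 to 0.08. YHB1, a flavohemoglobin that detoxifies nitric oxide, had 0.35 at -296 bp and 1.08 at -246 bp, and ZEO1, a plasma membrane protein, 0.17 at -250 bp and 0.81 at -291 bp. The next ZEO1 call went from 0.52 at -93 bp to 0.79 at -106 bp. The window ratios of IES6, YHB1 and ZEO1 were 1.14, 0.85 and 0.84. MMO1 went from 0.232 to 0.439 over its window (0.70). Of the 12 highest, MTC7 (0.92), HXT3 (0.81), RPS22B (0.80) and SFP1 (0.75) each include a CD call that had no room in the WT list.

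**Figure D4:**
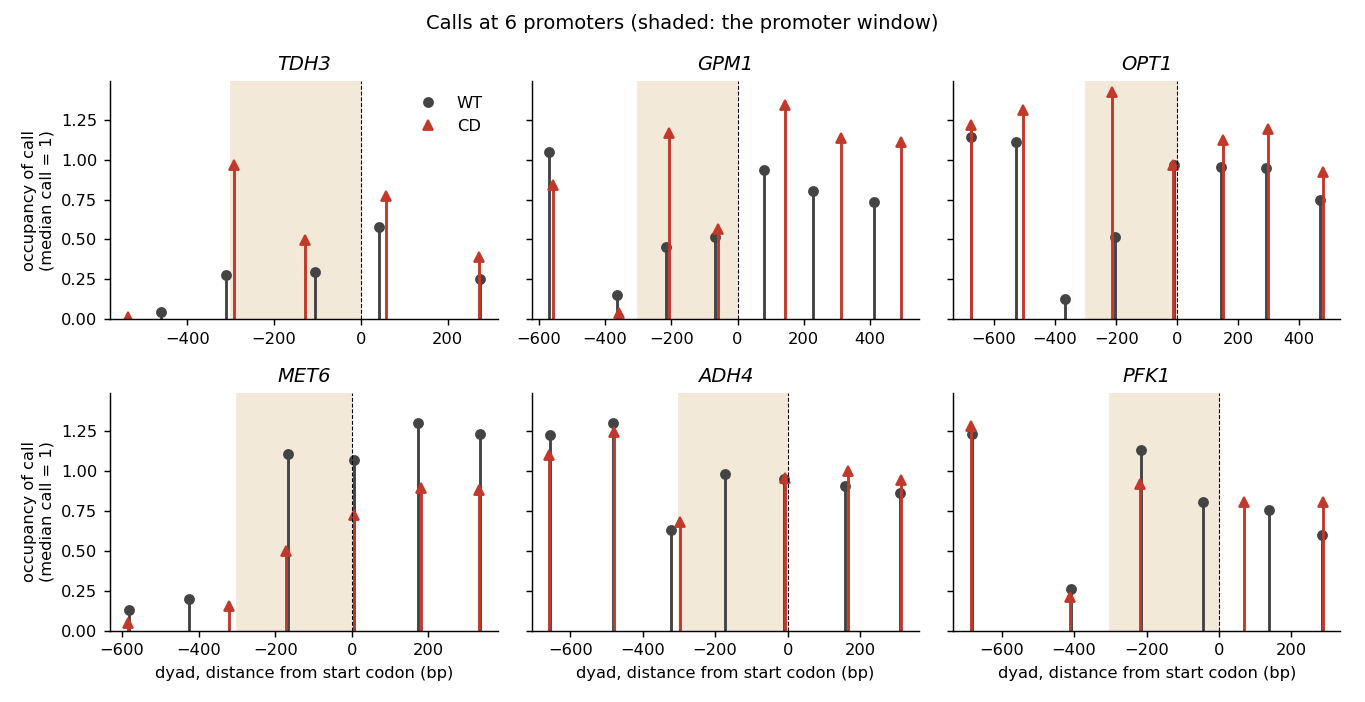
Calls around 6 start codons, each drawn as a stem at the distance of its dyad from the start codon (bp) with its occupancy (median call = 1) as height, WT as circles and CD as triangles. TDH3, GPM1 and OPT1 have a taller CD call in the shaded promoter window (0.97, 1.17 and 1.42), MET6 a shorter one (0.50), and ADH4 and PFK1 lack a WT call in CD between neighbours too close for one.

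The promoters with less occupancy fall into those with a weaker call and those with a call that had no room. MET6, the methionine synthase (chromosome V, 339864 to 342167, minus strand), had 1.11 at -166 bp in WT and 0.50 at -172 bp in CD, a window ratio of -0.71. MET3, the ATP sulfurylase of sulfate assimilation, had 0.69 at -229 bp in WT and 0.26 in CD at the same distance (window -0.68). FLC1, a putative flavin carrier, had 0.42 at -217 bp and 0.07 at -218 bp (window -0.66). Its relative FLC2 went from 0.96 at -111 bp to 0.51 at -122 bp (window -0.71), and RPL31A, of the large ribosomal subunit, from 0.42 to 0.13 (window -0.67).

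The other 7 of the 12 lowest, LSM5, HXT11, ADH4, RPS25B, PFK1, RIF2 and WTM1, lack a WT call that had no room in CD. ADH4, an alcohol dehydrogenase (chromosome VII, 15159 to 16307, plus strand), had a WT call of 0.98 at -174 bp, and in CD its neighbours lay at -298 and -6 bp. At PFK1, a phosphofructokinase subunit (chromosome VII, 970771 to 973734, minus strand), a WT call of 0.81 at -43 bp was absent, with CD neighbours at -217 and 69 bp. ADH4 had -0.08 and RPS25B -0.01 in dSnf2, against -0.85 and -0.81 in CD. Reads of HXT11 may be divided with its near-identical relative HXT9, which leaves its value of -0.88 uncertain.

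By gene list, lower glycolysis stood highest and methionine and sulfate genes lowest. The 8 lower glycolytic genes, from glyceraldehyde-3-phosphate to pyruvate, had a median promoter ratio of 0.42 against -0.15 for all genes, and 5 of 8 were above WT, where 11.7% of all promoters were. With the window of -200 to -1 bp the median was 0.028, with 4 of 8 above WT and none past 1.5-fold. TDH3 (0.84) and GPM1 (0.69) passed 1.5-fold. TDH2, a second glyceraldehyde-3-phosphate dehydrogenase, had 0.44 (0.593 in WT, 0.841 in CD), the enolase ENO2 0.42 (0.279 and 0.408) and the pyruvate kinase CDC19 0.41 (0.258 and 0.375). With the shorter window TDH2 had -0.015, ENO2 0.07 and TDH3 0.36, and the TDH2 window is touched by calls without room in either list. The other 3 were below WT: the phosphoglycerate kinase PGK1 (-0.33), ENO1 (-0.18, touched by calls without room) and TDH1 (-0.05). With the window of -400 to -1 bp ENO1 had 0.035. The coding regions of the 4 members of at least 1000 bp were all above WT, as were 63.1% of the 3536 measured. They had 0.47 at ENO2, 0.45 at CDC19, 0.23 at PGK1 and 0.09 at ENO1. TDH2 and TDH3, and ENO1 and ENO2, are close paralogs, and reads could be divided between them by the alignment.

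**Figure D5:**
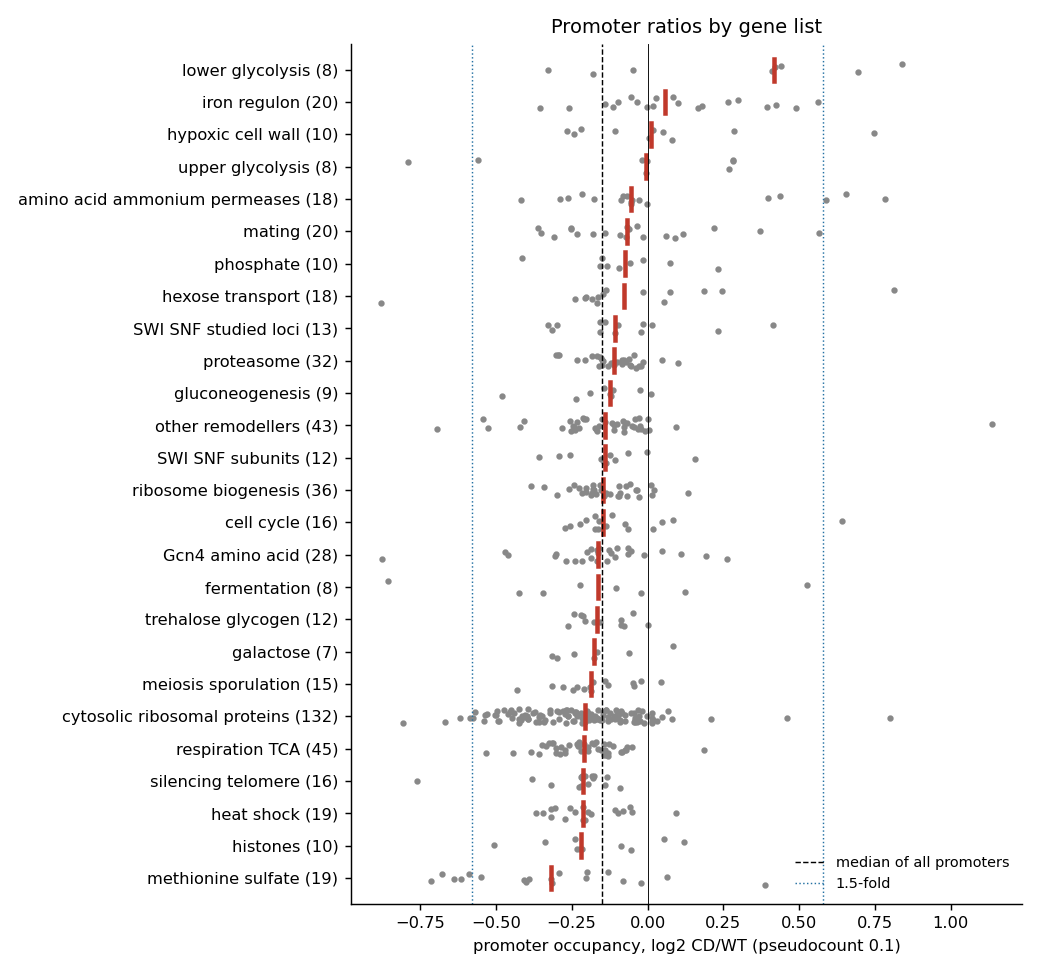
Promoter log2 ratios of CD over WT for the members of 26 gene lists (points; number measured in brackets), with the list median (bar), the median of all promoters (dashed) and the 1.5-fold limits (dotted); genes with an occupancy of 0 in either list are not drawn. Lower glycolysis has the highest median (0.42) and methionine and sulfate genes the lowest (-0.32).

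Upper glycolysis, from glucose to triose phosphates, had a median of -0.0040, with 3 of 8 above WT against 11.7% of all promoters. The median was 0.011 with scaling by the mean call, 0.081 without calls below 0.25 and -0.12 with the window of -200 to -1 bp. TPI1 (0.28), PFK2 (0.28) and PGI1 (0.27), for triosephosphate isomerase, a phosphofructokinase subunit and phosphoglucose isomerase, were above WT, but TPI1 had -0.17 with the shorter window. PFK1 (-0.79) and the hexokinase HXK1 (-0.56), both with a WT call that had no room in CD, were the lowest. The main alcohol dehydrogenase gene of fermentation, ADH1, had 0.53.

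The iron regulon stood second by its list median. For the counts that follow, 11.7% of all promoters were above WT and 0.526% were higher by 1.5-fold or more. Of the 20 iron regulon genes 12 were above WT (median 0.06), none past 1.5-fold: the siderophore transporters ENB1 (0.56), SIT1 (0.42) and ARN1 (0.39) and the ferric reductase FRE2 (0.49, with a CD call that had no room in WT) stood highest, and SMF3, a vacuolar metal transporter, lowest (-0.36). With the window of -200 to -1 bp the iron regulon median was 0.013, and FRE2 had 1.15. The 18 amino acid, ammonium and peptide permeases had a median of -0.05, with 5 above WT, 13 below and 3 past 1.5-fold. These 3 were OPT1 (0.78), the branched-chain amino acid permease BAP2 (0.66; 0.305 in WT, 0.538 in CD) and the broad-range permease AGP1 (0.59; 0.561 and 0.894). With the window of -200 to -1 bp none of the 18 was past 1.5-fold, and AGP1 had 0.20. The median was -0.12 with that window and 0.023 with -400 to -1 bp. The 18 hexose transport genes had a median of -0.08 (6 above WT, 10 below) and the 10 phosphate genes -0.08 (2 above, 7 below). Of 10 measured hypoxic and cell wall genes (12 listed) 6 were above WT (median 0.01), led by TIR1 (0.75) and its relative TIR3 (0.28, touched by calls without room). With the windows of -200 to -1 and -400 to -1 bp the median was -0.13 and -0.012.

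The methionine and sulfate list had a median of -0.32, with 2 of 19 genes above WT and 5 at or below -0.58, where 0.628% of all promoters were. Beside MET6 and MET3 these were MET2 (-0.64), homoserine acetyltransferase, MET13 (-0.62), methylenetetrahydrofolate reductase, and MET1 (-0.59), of siroheme synthesis. MET2 went from 0.698 to 0.412, MET13 from 0.682 to 0.411 and MET1 from 0.573 to 0.348. Relative to the median promoter MET6, MET3 and MET2 had -0.57, -0.53 and -0.49, and 0 of 19 passed 1.5-fold. With the window of -200 to -1 bp the list median was -0.37, with 3 past 1.5-fold. CYS4, cystathionine beta-synthase, was the highest member (0.39). In dSnf2 the list had a median of -0.24, in dSnAC -0.30 and in dAT -0.39, from the same WT list and against all-gene medians of -0.08, -0.23 and -0.30.

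Medians of the ribosome, heat shock, respiration, silencing, proteasome and SWI/SNF subunit lists lay from -0.21 to -0.11. The 132 cytosolic ribosomal protein genes had a median of -0.20, with 12 above WT, RPS22B (0.80) highest and RPS25B (-0.81) lowest. Heat shock genes (-0.21, 1 of 19 above WT), respiration and TCA cycle genes (-0.21, 1 of 45) and silencing and telomere genes (-0.21, 0 of 16) were similar. Of all promoters 11.7% were above WT. Without calls below 0.25 the cytosolic ribosomal protein median was -0.075, with 38 above WT, against an all-gene median of -0.141. With the window of -200 to -1 bp it was -0.126, with 30 above WT, against -0.139. Ribosome biogenesis genes had -0.15, but their coding regions were higher in 28 of 29 (median 0.19), against 63.1% of all genes, and those of the proteasome in 15 of 15 (0.13). The 32 proteasome promoters had a median of -0.11. The 12 genes of SWI/SNF subunits had -0.14, with SNF6 (0.16) the one above WT and the actin-related ARP7 (-0.36) lowest.

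Of 13 promoters long studied with SWI/SNF, 3 were above WT, against 11.7% of all promoters, and none was past 1.5-fold. Their median was -0.11. PHO5, the repressible acid phosphatase, had 1.29 at -252 bp in WT and 1.51 at -247 bp in CD, and a window of 1.00 and 1.20 (0.23). FLO11, a flocculin of the cell surface, had 0.41 (0.613 and 0.850), but its window includes a CD call of 0.85 at -310 bp that had no room in WT, and the ratio was 0.078 from -200 to -1 bp. SUC2, the invertase, had -0.33 (0.685 and 0.526), and its calls at -310 and -147 bp went from 1.20 to 1.04 and from 0.87 to 0.71. GAL1, the galactokinase, had -0.32, HO, the mating-type endonuclease, -0.14, INO1, inositol phosphate synthase, -0.10, and PHO8, an alkaline phosphatase, -0.16. The all-gene median was -0.15 with an SD over genes of 0.17. All values come from rich medium, in which SUC2, PHO5, GAL1 and INO1 are known to be repressed.

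A smaller share of gene bodies than of promoters differed by 1.5-fold. The windows differ in length, 1000 bp for bodies against -300 to -1 bp for promoters, so a single nucleosome weighs less in a body. By 1.5-fold, 3 coding regions were higher (0.0848% of 3536) and 0 lower. They belonged to SIT1 (0.521 in WT, 1.03 in CD, log2 0.86), PDR5 (0.495 and 0.812, 0.62) and SNQ2 (0.610 and 0.968, 0.59), the last pair being multidrug transporters. The next 3, chosen like these after the values were seen, were RPO21, the largest subunit of RNA polymerase II (0.54), the peptide transporter PTR2 (0.54) and the iron uptake oxidase FET3 (0.53). The lowest bodies were MET6 (1.05 and 0.763, -0.41), PES4 (-0.38), the cystathionine beta-lyase gene STR3 (-0.37), SPO21, of the meiotic spindle pole body (-0.36), MET13 (-0.34) and the kinase gene SKS1 (-0.32). Of these 6, MET6, STR3 and MET13 act in methionine metabolism. Over the methionine and sulfate list, the 16 coding regions measured had a median of only -0.03. Of these 16, 6 were above WT, against 63.1% of all 3536.

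Past gene ends, 60 windows were higher by 1.5-fold or more (1.02%) and 216 lower (3.67%). A call without room touched 36 of the 60 and 77 of the 216, and without such windows the counts were 24 and 138. Among the 12 named, SHR5, PHO5 and RPL35A had none. The window past SHR5, a palmitoyltransferase subunit, went from 0.099 to 0.592 (1.80) and overlaps the promoter of ZEO1, 407 bp away. Past PHO5 it went from 0.25 to 0.781 (1.33). Past RPL35A, of the large ribosomal subunit, it went from 0.542 to 0.168 (-1.26). The windows of RRP43 (-1.53) and ELO2 (-1.52) face each other between convergent genes and are 1 region. PUL4 (-1.44), SCM4 (-1.38) and TRM82 (-1.31) on the lower side, and MLH3 (1.55), RAD55 (1.31), OCH1 (1.28) and SPB1 (1.03) on the higher, include a call without room.

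The widest gap between calls near the start codon, taken as the depleted region, had the same median width in both lists. This median was 241 bp, and the median difference per gene was 0 bp. In 4774 genes the same gap was the widest in both lists, and of these 114 gained 20 bp or more of width in CD and 156 had that much less. Since gaps of 296 bp and more are nearly always filled by a call, widths have a ceiling there. Calls of any occupancy bound a gap, so a bounding call that is weaker in CD leaves the width unchanged. The measure can therefore miss a widening. In 4869 genes both lists gave the same +1 nucleosome, and it lay 20 bp or more upstream in CD in 98 (2.01%) and downstream in 48 (0.986%).

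The named +1 displacements lay close to the 73 bp limit of matching. Upstream were STP4, a zinc finger protein (from -70 to -140 bp of the start codon), the polyamine transporter TPO2 (73 to 8 bp), RPI1 (148 to 83 bp), INA1 (-107 to -170 bp), SMI1, a regulator of cell wall synthesis (-14 to -76 bp), and FMP48 (-36 to -97 bp). Downstream were PIR1, a cell wall protein (31 to 104 bp), MIT1 (-175 to -104 bp), the aldehyde dehydrogenase ALD6 (11 to 78 bp), GPM1 (80 to 144 bp), CDC26, of the anaphase-promoting complex, (-31 to 30 bp) and CAB2, of coenzyme A synthesis (-93 to -35 bp). At GPM1 the CD calls inside the gene, at 144, 314 and 495 bp, had 1.34, 1.14 and 1.11. The WT calls at 80, 228 and 412 bp had 0.93, 0.81 and 0.74. Only the calls at 80 and 144 bp formed a pair, so the others are not the same nucleosomes compared.

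Set directly against the SNF2 deletion, which needs no WT list, promoters of CD were slightly less occupied. The median log2 ratio of CD over dSnf2 was -0.07 with an SD over genes of 0.10, and CD was lower in 78.8% of genes. By 1.5-fold, CD was higher in 7 promoters (0.119% of 5889) and lower in 11 (0.187%). Several of these are touched by a call without room, judged between the WT and CD lists. They include RPS25B, ADH4 and PFK1 on the lower side and PRB1 and LCL1 on the higher. YER137C-A and YER138C, both on the lower side, share the same promoter window. HXT9, on the higher side, had an occupancy of 0 in dSnf2. The 31 promoters higher in CD than in WT had a median of 0.75 in CD, 0.74 in dSnf2, 0.50 in dSnAC and 0.28 in dAT. The 37 lower ones had -0.67, -0.52, -0.69 and -0.81. Both sets were chosen by their CD value and all 4 comparisons share the WT list, so these medians are a description. TDH3 had 0.84 in CD, 0.92 in dSnf2, 0.42 in dSnAC and 0.07 in dAT, GPM1 had 0.69, 0.72, 0.16 and 0.24, and MET6 had -0.71, -0.80, -0.43 and -0.70.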

How the data were processed

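Per the labels, the authors merged the replicates of a strain and deposited 1 list of nucleosome calls for it. The submitters' processing notes name Bowtie, an aligner, and the build sacCer3. Caller and filters: not given in the sources used here. Per the file headers, each call has an occupancy (a coverage signal), a dyad and its SD in bp, and a conditional position (a fraction). Each deposited occupancy is a whole multiple, to within 0.01, of the smallest value in its list, taken as 1 read.

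Occupancies were divided by the median nuclear call outside the ribosomal DNA (chromosome XII, 451000 to 469000), and each call was spread over 147 bp around its dyad. Mitochondrial calls were left out. Gene positions came from RefSeq R64, the assembly of sacCer3. Of 6002 nuclear genes, 113 with a start codon within 10 kb of a chromosome end were left out. Promoters are -300 to -1 bp of the start codon, terminators 1 to 200 bp past the stop codon. The depleted region is the widest gap between neighbouring dyads with its midpoint at -350 to 50 bp of the start codon. A WT and a CD dyad formed a pair if each was the other's nearest, at most 73 bp away.

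Named genes are the 12 highest and 12 lowest promoters and the 6 highest and 6 lowest terminators. These had a standard name and a mean of both occupancies of at least 0.25. Others came from the 6 largest +1 displacements each way (both calls at least 0.5). The rest were all lower glycolytic loci, SWI/SNF model loci, up to 3 of each other list, and SNF2. Not all of the SWI/SNF model loci are printed. Further list members, gene bodies and arrays were named after their values were seen. Members, lists and rules were chosen with earlier results of these data known. Measures were tested on simulated data. Python 3.11.15, numpy 2.4.6, pandas 2.3.3 and scipy 1.17.1 were used.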

Additional observations from a re-analysis of the deposited data

How the results depend on the processing

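The sign of the promoter, terminator and gene body medians was the same under every alternative run. The promoter median (-0.15) was -0.13 with scaling by the mean call, -0.13 and -0.16 with pseudocounts of 0.25 and 0.05, -0.14 without calls below 0.25, and -0.14 with the windows of -200 to -1 and of -400 to -1 bp. The terminator median was -0.18 and the gene body median 0.056 with scaling by the mean call, and the terminator median was -0.20 at convergent genes. Counts of promoters past 1.5-fold depended more on the settings. Higher and lower ones numbered 60 and 12 after centring, 17 and 10 with a pseudocount of 0.25, and 4 and 0 by a rule of 1. The higher count was 18 without promoters touched by a call without room, an alternative added, like the convergent genes, after the data were seen. The lower count was 67 with a pseudocount of 0.05, 64 without calls below 0.25 and 58 with the shorter window. The promoter of IES6 was at -0.072 with the shorter window, so its higher occupancy lay upstream of it. With a pseudocount of 0.25, AGP1, BAP2, GPM1, MMO1, FLC1, FLC2, MET2, MET3 and RPL31A were under 1.5-fold. LSM5, WTM1, FLC1, MET2 and GPM1 had -0.13, -0.21, -0.19, -0.47 and 0.57 with the longer window, and with the shorter one TDH3, TIR1, AGP1, BAP2, OPT1, YHB1, HXT3 and GPM1 had 0.36, 0.34, 0.20, 0.42, 0.47, 0.48, 0.52 and 0.54, and RPL31A, FLC1, MET3 and WTM1 -0.47, -0.49, -0.52 and -0.32. List medians under other settings were added after the data were seen, and that of lower glycolysis (0.42) was 0.028 with the shorter window.

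Displaced dyads made up 5.31% with a match distance of 40 bp, 8.30% with both calls at least 0.5 and 5.79% for a shift of 30 bp. With that shift 60 +1 dyads lay upstream and 29 downstream. The median difference of conditional position was -1.08e-06 with both calls at least 0.5, the other sign from that over all pairs. The causes were not tested. No paired analysis was possible because the replicates of each strain were merged into 1 list, and leaving out each replicate was not run for the same reason. Counting error limits weak calls most, and the spread between cultures is unknown.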
